A study of Mus musculus with 33 samples.

Results

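The genes described here are 10 markers of fibroblasts and of the connective tissue matrix, namely Dcn, Lum, Dpt, Pdgfra, Pdgfrb, Postn, Fn1, Sparc, Thy1 and Fap. They were picked by name, with earlier results of these data known, and are 10 of the 55487 genes in the count table. Each was measured by bulk RNA-seq in 33 libraries of green fluorescent mammary cells from 33 mice. The question asked of them was which libraries carry RNA of fibroblast type, and how that bears on the differences between tumors and tumor-free glands.

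The PyMT and Cre lines were on an FVB/NJ background, and the floxed Pthrp allele had been backcrossed from C57BL/6 to FVB. All mice carried Cre recombinase driven by the MMTV promoter (Cre+) and the mTmG reporter, in which cells switch from membrane tdTomato to membrane GFP once Cre has acted. PTHrP WT mice were Pthrpwt/wt and PTHrP KO mice Pthrpflox/flox, so that the controls carried Cre as well. Tumor mice also carried the polyoma middle T antigen (PyMT) oncogene, and tumor-free mice did not. Tumor-free glands came from 2 mice per group, at 6, 8, 10 and 12 weeks of age for WT and at 8, 10 and 12 weeks for KO. Tumors came from 3 mice per group, at 6, 8 and 10 weeks for WT and at 8, 10 and 12 weeks for KO. A single WT tumor of week 12 entered no comparison between groups, though it was among the libraries of the fit, the correlations and the search for libraries that stood apart. Dissociated cells were kept in culture with fetal bovine serum for 48 h before GFP+ cells were sorted, so every value describes sorted cells after culture and not intact tissue. Because these were bulk samples, fewer cells of a type and less RNA per cell cannot be told apart.

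Fibroblasts build the collagenous matrix around the mammary ducts, and they are recognized by small proteoglycans that bind collagen fibrils (decorin from Dcn, lumican from Lum), by dermatopontin (Dpt), by the receptors for platelet-derived growth factor (Pdgfra, Pdgfrb) and by the surface protease fibroblast activation protein (Fap). Other matrix genes are less restricted. Fibronectin (Fn1), the secreted collagen-binding protein SPARC, periostin (Postn) and the surface glycoprotein THY1 can also be made by epithelial or contractile cells, and Thy1 marks mouse T lymphocytes too. The mammary duct has an inner luminal layer and an outer basal, or myoepithelial, layer, whose cells contract around the milk-filled lumen and lie on the basement membrane.

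In GRCm38 the 10 genes lie on 8 chromosomes. Dcn and Lum are neighbors on the plus strand of chromosome 10, from 97479609 to 97518143 and from 97565128 to 97572703. Postn lies on the plus strand of chromosome 3 from 54361109 to 54391037, with 22 merged exon blocks, and Sparc on the minus strand of chromosome 11 from 55394500 to 55423183, with 12. Thy1 lies on chromosome 9 from 44043384 to 44048579, Fn1 on chromosome 1 from 71585520 to 71653200 and Dpt on the same chromosome from 164796644 to 164824266. Pdgfra (chromosome 5), Pdgfrb (chromosome 18) and Fap (chromosome 2) have 27, 24 and 27 merged exon blocks. Dpt, Pdgfra and Fn1 overlap annotated genes on the opposite strand (Gm32569, Gm42802 with Gm42803, and Apol7d), and the sources used here do not state whether counting used strand, so reads of these pairs could not be told apart.

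Postn and Sparc moved together across libraries, as described below, and the 250 bases just upstream of their annotated RefSeq starts (GRCm38.p6) are shown for that reason. Promoter windows were matched for 4 of the 10 genes. The Postn window is chr3:54360857-54361106, plus strand, and the Sparc window is chr11:55420081-55420330, read on the minus strand. The Sparc window lies inside the gene span given above, whose outermost annotated start is further upstream than the RefSeq start. Capitals mark the letters TATAAA, the core of a TATA box.

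Postn: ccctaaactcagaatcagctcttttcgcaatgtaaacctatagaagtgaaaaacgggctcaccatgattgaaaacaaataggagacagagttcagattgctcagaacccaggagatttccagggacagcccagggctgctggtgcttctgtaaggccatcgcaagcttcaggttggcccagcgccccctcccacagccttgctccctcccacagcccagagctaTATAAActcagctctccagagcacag

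Sparc: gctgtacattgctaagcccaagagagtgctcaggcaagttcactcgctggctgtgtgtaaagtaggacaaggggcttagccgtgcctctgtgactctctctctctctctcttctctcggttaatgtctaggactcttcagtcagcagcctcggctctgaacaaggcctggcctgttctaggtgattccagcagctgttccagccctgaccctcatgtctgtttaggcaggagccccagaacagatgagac

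The table held a further Postn window at chr3:54359017-54359266, with 0 matches to TATAAA, and the window shown is the one that ends next to the gene's start given above. The Postn window shown held 1 match to TATAAA, searched on both strands, starting at position -26 relative to the annotated start. The Sparc window held 0 matches, and 12.4% of 32817 RefSeq promoter windows of that length held at least 1. The letters CANNTG, an E-box, occurred 2 times in the Sparc window and 0 times in the Postn window shown, against 66.2% of all windows with a match.

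The libraries held 28419983 to 130981596 reads counted to genes (median 46351179), and 3 reads, the floor used here, corresponded to 0.0229 to 0.106 CPM (reads relative to the library's total, here scaled by TMM, the trimmed mean of M values). Ribosomal RNA took up to 0.447% of reads in WT and up to 18.8% in KO libraries. Epithelial markers were high throughout, as the summed CPM of 10 luminal markers ranged from 5880 to 11500 over all 33 libraries. RNA read as tdTomato, the reporter of cells without Cre activity, ranged from 45.6 to 104 CPM in WT glands, 64.4 to 208 in KO glands, 80.5 to 181 in WT tumors and 77.9 to 143 in KO tumors. Each mouse gave a single library, and p-values measure the spread between mice.

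The 10 genes differed widely in abundance. Per kilobase of exon, Fn1 was highest in glands with a median of 307 CPM per kb, ahead of Postn at 236 and Sparc at 191. Thy1 followed at 2.67, Pdgfrb at 1.11, Pdgfra at 0.408 and Dcn at 0.302. Fap, Dpt and Lum were lowest at 0.0498, 0.021 and 0.0155. In glands the less restricted matrix genes thus ranked above the proteoglycan, dermatopontin and receptor genes of fibroblasts, though in tumors Thy1 lay below Pdgfra and Pdgfrb. In tumors the medians per kb were 134 for Fn1, 32.1 for Sparc, 31.5 for Postn, 0.843 for Pdgfra, 0.714 for Pdgfrb, 0.463 for Thy1, 0.244 for Dcn, 0.0823 for Lum, 0.0676 for Fap and 0.0365 for Dpt.

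**Figure D1:**
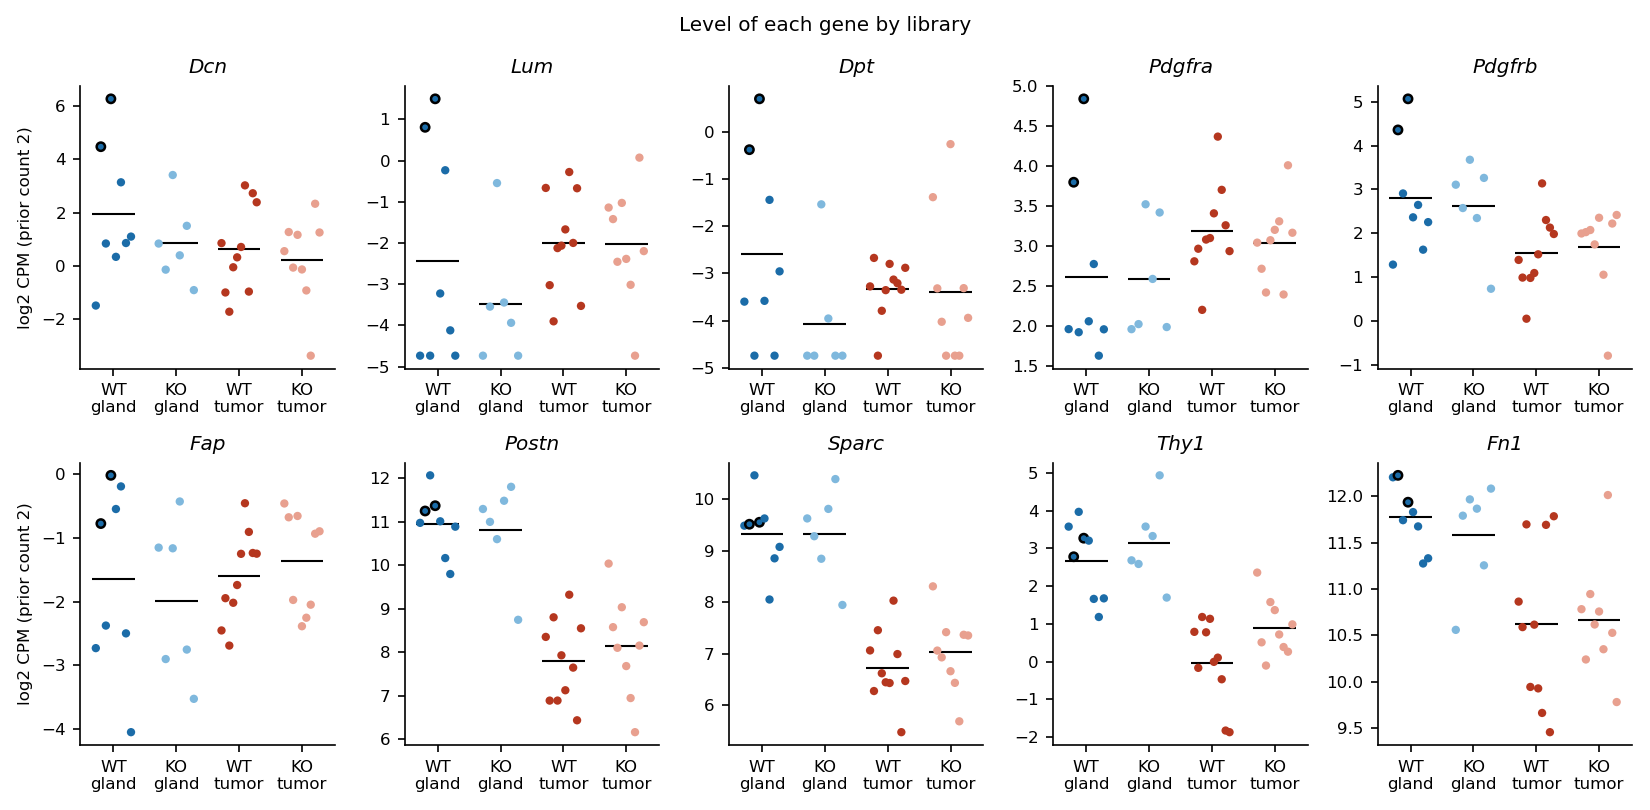
Log2 CPM (prior count 2) of each of the 10 genes in every library, grouped as WT gland, KO gland, WT tumor and KO tumor, with each point a mouse, lines for the group means and black rings around the second WT glands of weeks 6 and 8. The ringed libraries are the highest of all for Dcn (22.3 and 77.8 CPM), Lum and Pdgfrb and sit among the other glands for Postn, Sparc and Thy1.

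Dcn differed widely between mice of the same group. In WT glands it was 0.317 and 22.3 CPM at week 6, 1.75 and 77.8 at week 8, 1.22 and 8.78 at week 10, and 1.77 and 2.10 at week 12. In KO glands it was 1.75 and 0.866 CPM at week 8, 10.6 and 1.28 at week 10, and 2.80 and 0.492 at week 12. The second WT glands of weeks 6 and 8 were thus the highest of all 33 libraries, and the first WT glands of those ages were not raised. In WT tumors Dcn was 1.77, 0.461 and 0.264 CPM at week 6, 0.924, 1.21 and 1.60 at week 8, and 8.10, 0.472 and 6.59 at week 10, with 5.20 in the week 12 tumor. In KO tumors it was 1.43, 2.37 and 0.916 at week 8, 2.20, 0.871 and 0.488 at week 10, and 0.0583, 5.00 and 2.35 at week 12. Tumors and glands overlapped throughout, and 1 of 10 WT tumors and 2 of 9 KO tumors lay below every gland of their genotype.

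Lum and Dpt, near the limit of detection in most libraries, were raised in the same WT glands. Lum was 0 and 1.71 CPM in the WT glands of week 6, 0 and 2.79 at week 8, 0.0693 and 0.812 at week 10, and 0.0199 and 0 at week 12. It stayed at or below 3 reads in 9 of 14 glands and in 3 of 19 tumors. Dpt was 0.0453 and 0.729 CPM in the WT glands of week 6, 0 and 1.58 at week 8, 0.0462 and 0.330 at week 10, and 0 and 0.0914 at week 12. It stayed at or below 3 reads in 8 of 14 glands and 11 of 19 tumors.

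The PDGF receptors showed the same glands above a measurable base level. Pdgfra, the receptor that is typical of fibroblasts, was 3.87 and 13.9 CPM in WT glands of week 6, 3.77 and 28.7 at week 8, 4.14 and 6.83 at week 10, and 3.07 and 3.86 at week 12. KO glands ranged from 3.87 to 11.5 (median 5.02), WT tumors from 4.58 to 20.7 (median 8.50) and KO tumors from 5.24 to 16.1 (median 8.40). Pdgfrb, found on fibroblasts and on the mural cells of vessels, was 2.40 and 20.4 CPM in WT glands of week 6, 7.46 and 33.4 at week 8, 5.11 and 6.22 at week 10, and 3.05 and 4.73 at week 12. Its range was 1.63 to 12.7 in KO glands, 0.998 to 8.76 in WT tumors and 0.540 to 5.30 in KO tumors. For Pdgfrb the second WT glands of weeks 6 and 8 were the highest of all libraries, and for Pdgfra the WT tumor of week 10 replicate 1 (20.7 CPM) and the KO tumor of week 12 replicate 2 (16.1 CPM) lay between them.

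For Postn, Sparc, Thy1 and Fn1 those glands differed far less from the first WT glands. The CPM of the second over that of the first WT gland was 70.4 at week 6 and 44.4 at week 8 for Dcn, 3.59 and 7.62 for Pdgfra, 8.53 and 4.48 for Pdgfrb, and 4.83 and 6.13 for Fap. The same ratios were 1.21 and 0.616 for Postn, 1.02 and 0.532 for Sparc, 0.574 and 0.616 for Thy1, and 1.01 and 1.14 for Fn1. The 10 genes therefore did not move as a block between mice of a group.

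The other lists were read in the same libraries. Over 15 further fibroblast genes (the fibroblast reference list, with collagens such as Col1a1 and Col3a1 and factors such as Prrx1 and Twist2), the summed level was 326 CPM in the second WT gland of week 6 and 887 in that of week 8. The remaining WT glands began at 49.3 CPM, KO glands ranged from 41.1 to 208, WT tumors from 44.5 to 189 and KO tumors from 40.7 to 108. The mean log2 CPM of that list was 2.85 and 3.96 in these WT glands and at most 1.90 in any other library, reached by the KO gland of week 10 replicate 1. The mean log2 CPM of 10 basal markers was 9.22 and 9.42 in them, inside the gland range of 7.86 to 10.2. Their tdTomato-read RNA was 45.7 and 47.0 CPM, near the lowest of all libraries. The summed endothelial markers reached 9.96 CPM in the second WT gland of week 8 and 21.3 in the KO gland of week 10 replicate 1, the most of any library.

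Postn was among the most abundant genes in glands and lower in tumors. In WT glands it was 2020 and 2440 CPM at week 6, 4300 and 2650 at week 8, 2070 and 1150 at week 10, and 891 and 1900 at week 12. In KO glands it was 2520 and 2050 at week 8, 1550 and 2870 at week 10, and 3580 and 429 at week 12. The second KO gland of week 12 was the lowest of the glands, and it also had the highest ribosomal RNA share (18.8%) and the lowest basal mean (7.86) of the glands, whose part was not tested. In WT tumors Postn was 327, 118 and 446 CPM at week 6, 118, 243 and 139 at week 8, and 640, 200 and 86.3 at week 10, with 375 in the week 12 tumor. In KO tumors it was 1050, 382 and 274 at week 8, 524, 205 and 123 at week 10, and 71.4, 284 and 413 at week 12. All 10 WT tumors lay below all 8 WT glands, and 7 of 9 KO tumors lay below all 6 KO glands.

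Sparc followed the same order. In WT glands it was 716 and 730 CPM at week 6, 1410 and 750 at week 8, 789 and 265 at week 10, and 461 and 538 at week 12. In KO glands it was 789 and 621 at week 8, 459 and 897 at week 10, and 1340 and 246 at week 12. In WT tumors it was 133, 77.3 and 175 CPM at week 6, 98.1, 86.9 and 86.1 at week 8, and 261, 127 and 44.4 at week 10, with 88.4 at week 12. The groups of WT did not overlap. In KO tumors it was 316, 133 and 122 at week 8, 171, 101 and 86.2 at week 10, and 51.4, 165 and 163 at week 12, and 8 of 9 were below every KO gland.

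Thy1 was lower in level and similar in pattern. It was 11.9 and 6.82 CPM in WT glands of week 6, 15.6 and 9.60 at week 8, 9.18 and 3.12 at week 10, and 2.23 and 3.15 at week 12. KO glands had 6.38 and 5.97 at week 8, 11.9 and 9.99 at week 10, and 30.5 and 3.20 at week 12. WT tumors ranged from 0.236 to 2.23 (median 0.997) and KO tumors from 0.892 to 5.09 (median 1.61), with 9 of 10 WT and 8 of 9 KO tumors below every gland of their genotype. Summed lymphocyte markers, to be read beside Thy1, reached at most 1.27 CPM in any library other than the KO gland of week 10 replicate 2, where they summed to 14 CPM.

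Fn1 stayed abundant in both tissues. WT glands ranged from 2480 to 4790 CPM (median 3530) and KO glands from 1510 to 4340 (median 3640). WT tumors ranged from 701 to 3530 (median 1550) and KO tumors from 879 to 4130 (median 1570), and 7 of 10 WT and 4 of 9 KO tumors lay below every gland of their genotype. Fap was scarce in every group, at 0.0229 to 0.950 CPM in WT glands, 0.0492 to 0.706 in KO glands, 0.117 to 0.691 in WT tumors and 0.154 to 0.690 in KO tumors, and its groups overlapped.

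Tumors were compared with glands of the same genotype in a fit of edgeR's quasi-likelihood test over all 33 libraries and 36527 genes. A gene was called when it differed by more than 1.5-fold at an adjusted p (Benjamini-Hochberg over all genes) below 0.1. In WT, averaged over weeks 6, 8 and 10, 7 of the 10 genes were lower in tumors and 0 higher, where 9.53% of all genes tested were called lower and 6.21% higher. The median log2 difference of the 10 genes was -2.17, against 0.03 over all genes, but -0.18 without the second WT glands of weeks 6 and 8 and -0.07 with the fibroblast reference mean as a covariate, both described below. Postn fell by 3.22 (SE 0.47, edgeR adjusted p = 1.33e-05), Sparc by 2.65 (SE 0.37, edgeR adjusted p = 5.59e-06) and Thy1 by 2.92 (SE 0.40, edgeR adjusted p = 5.13e-06) on the log2 scale. Fn1 fell by 1.28 (SE 0.30, edgeR adjusted p = 0.00324) and Pdgfrb by 1.90 (SE 0.44, edgeR adjusted p = 0.0025). Dcn fell by 2.89 (SE 0.79, edgeR adjusted p = 0.0101) and Dpt by 2.45 (SE 0.93, edgeR adjusted p = 0.0713). The log2 differences of Lum, Fap and Pdgfra were -1.34, -0.83 and 0.04 (edgeR adjusted p = 0.304, 0.193 and 1.00). The Dpt call was lost without any of 8 single WT libraries (log2 differences from -2.44 to 0.35), namely the second glands of weeks 6, 8 and 10 and the tumors of week 6 replicates 1 and 3, week 8 replicates 1 and 2 and week 10 replicate 3, and also with the ribosomal RNA share as a covariate (-2.34, edgeR adjusted p = 0.123). Fap was called lower without the first WT gland of week 6 (-1.06) or week 8 (-1.09).

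In KO, averaged over weeks 8, 10 and 12, 4 of the 10 genes were lower in tumors and 0 higher, where 5.44% of all genes were called lower and 5.16% higher. The median log2 difference of the 10 was -0.69, against 0.09 over all genes, and stayed at -0.69 with Lum and Dpt set at the bound that the floor allows. Postn fell by 2.64 (SE 0.47, edgeR adjusted p = 0.000194), Sparc by 2.35 (SE 0.36, edgeR adjusted p = 3.9e-05) and Thy1 by 2.35 (SE 0.39, edgeR adjusted p = 0.000103). With 1 library left out, the log2 differences ran from -2.91 to -1.89 for Postn, -2.58 to -1.77 for Sparc and -2.72 to -1.53 for Thy1. Fn1 fell by 0.87 (SE 0.30, edgeR adjusted p = 0.059), a call that was lost without any of 8 single KO libraries (log2 differences from -0.60 to -0.88): glands of week 8 replicate 2, week 10 replicates 1 and 2 and week 12 replicate 2, and tumors of week 8 replicate 2, week 10 replicate 3 and week 12 replicates 2 and 3. It was also lost with the ribosomal RNA share as a covariate (-0.63, edgeR adjusted p = 0.199) and without the 4 glands highest in Dcn (-0.85, edgeR adjusted p = 0.138). For Dcn (-0.52, edgeR adjusted p = 0.91) and Pdgfrb (-0.97, edgeR adjusted p = 0.175) the test was not passed. Pdgfrb was called lower, however, by DESeq2 (-0.98, adjusted p = 0.0861), without a filter (edgeR adjusted p = 0.0278), with the fibroblast reference mean as a covariate (edgeR adjusted p = 0.0037), without the second WT glands of weeks 6 and 8 (edgeR adjusted p = 0.0885) and without the KO gland of week 12 replicate 2 (-1.19). DESeq2 called 6 of the 10 genes in all, with Lum higher, against 4094 of all 36527 genes. The call of Pdgfrb thus depended on the setting, and its log2 difference ran from -1.19 to -0.354 with 1 library left out. The difference of Dcn turned positive without the KO gland of week 10 replicate 1 (0.22) or week 12 replicate 1 (0.09). No fold is read for Lum and Dpt, since the KO glands of weeks 8 and 12 were at or below the floor.

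**Figure D2:**
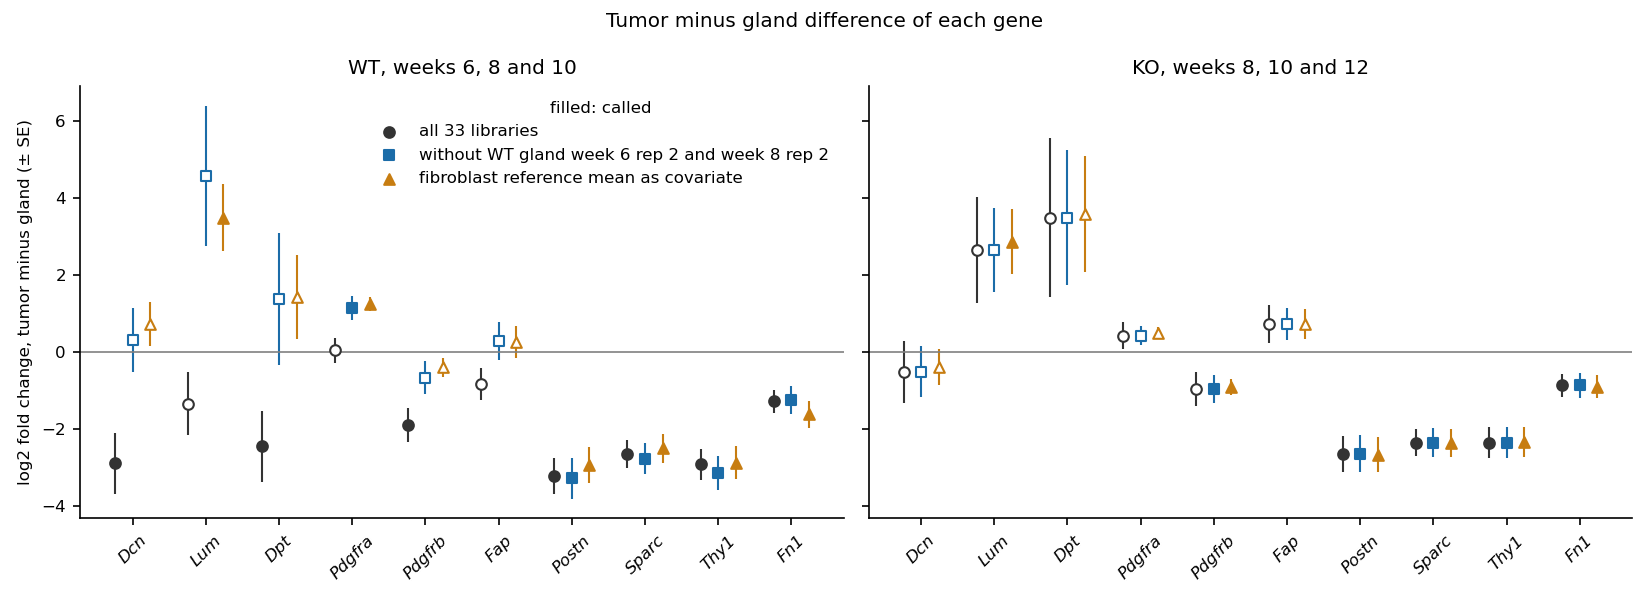
Log2 difference between tumors and glands for each of the 10 genes, with bars for its standard error, in WT (left) and KO (right), from all 33 libraries, without the second WT glands of weeks 6 and 8, and with the fibroblast reference mean as a covariate; filled points pass the test. Postn, Sparc and Thy1 lie between -3.28 and -2.34 in all of these settings, and Dcn in WT moves from -2.89 to 0.32 and 0.73. The values of Lum and Dpt in KO, and in WT without those glands, are against glands at the floor and are not read as folds. Nor is that of Lum in WT with the covariate.

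The WT comparison was repeated without the second WT glands of weeks 6 and 8, a setting chosen after the values were seen. Those libraries were picked for their high Dcn, and among all 33 libraries they also ranked 4 and 1 for Pdgfra and 2 and 1 for Pdgfrb, so that the shifts of Dcn, Pdgfra and Pdgfrb in this setting follow from the choice and are a description. The first WT gland was then the only gland at each of these ages and was assumed to vary like the other groups. Calls in this setting rest on that assumption, and the log2 differences are read as a description. Postn (-3.28, edgeR adjusted p = 9.31e-05), Sparc (-2.77, edgeR adjusted p = 3.17e-05), Thy1 (-3.14, edgeR adjusted p = 1.91e-05) and Fn1 (-1.24, edgeR adjusted p = 0.0217) were again called lower. Dcn went to a log2 difference of 0.32 (SE 0.83, edgeR adjusted p = 0.961) and Pdgfrb to -0.66 (edgeR adjusted p = 0.4), and Pdgfra was higher in tumors by 1.14 (SE 0.30, edgeR adjusted p = 0.0115). The Dcn call was lost already without the week 6 gland alone (-1.18, edgeR adjusted p = 0.454) or the week 8 gland alone (-1.39, edgeR adjusted p = 0.278). No fold is read for Lum and Dpt here, since the remaining WT glands of weeks 6 and 8 were at or below the floor. The median of all genes was 0.16 in this setting.

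The reference list of 15 fibroblast genes was counted in the same fits. The second WT glands of weeks 6 and 8 ranked 2 and 1 of all libraries on its mean, so that its shift without them follows from the choice too and is a description. In WT, 10 of the 15 were lower in tumors and 0 higher (9.53% of all genes lower), with a median log2 difference of -1.77. Without those glands the median was 0.14. In KO, 2 were lower and 2 higher (5.44% and 5.16% of all genes), with a median of -0.22 (-0.41 with genes at the floor set at their bound). Col14a1, a fibril-associated collagen (-3.81 in WT, -3.12 in KO), and Fbln1, a basement membrane fibulin (-2.96 and -2.12), were lower in both genotypes.

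When the mean log2 CPM of the reference list entered the fit as a covariate, Postn, Fn1, Sparc and Thy1 were again called lower in WT tumors, whereas Dcn was 0.73 (edgeR adjusted p = 0.448), and Pdgfra (1.24) and Lum were called higher, where 15.2% of all genes were called and 6.93% were lower. No fold is read for Lum, which was at or below 3 reads in 4 of the 8 WT glands. In KO the same covariate left 5 genes lower, Postn, Fn1, Sparc, Thy1 and Pdgfrb (-0.91 for Pdgfrb), and 1 higher, Lum, for which no fold is read since 5 of the 6 KO glands were below the floor (11.4% of all genes called, 5.77% lower). When the mean of the basal list was the covariate instead, the log2 differences in WT were 0.06 for Postn, 0.05 for Sparc and -0.12 for Thy1, and Fn1 alone was called. In KO they were 0.58, 0.27 and 0.36, and 0 of the 10 genes were called. In those basal-covariate fits 7.65% of all genes were called in WT and 8.32% in KO. The basal mean itself differed between the tissues, from 7.86 to 10.2 in glands and from 5.42 to 8.18 in tumors, so that tissue and covariate could be separated only in part.

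All 10 basal markers were lower in tumors of both genotypes, with median log2 differences of -2.94 in WT and -2.85 in KO, and -3.15 in WT without the second glands of weeks 6 and 8. The summed basal markers were 5310 to 20800 CPM in WT glands, 5560 to 19700 in KO glands, 1010 to 3690 in WT tumors and 1610 to 5420 in KO tumors. Examples are the contractile genes Myh11 (-3.81 in WT, -3.35 in KO), Cnn1 (-3.58, -3.10), Tagln (-3.33, -3.21) and Mylk (-3.34, -2.74). Whether the share of basal cells or their RNA content had a part in the fall of Postn, Sparc and Thy1 was not tested.

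Levels were then related to the marker lists across libraries of the same tissue. Among the 14 glands, Dcn tracked the fibroblast reference mean with Pearson's r = 0.907 (permutation p = 6e-05, adjusted p = 0.00471 over 1334 relations) and Spearman's rho = 0.723 (permutation p = 0.00469, adjusted p = 0.0911), and r was 0.730 without the 2 libraries farthest from the median. Pearson's r was 0.928 for Pdgfra, 0.901 for Lum, 0.896 for Dpt and 0.839 for Pdgfrb (permutation, adjusted p = 0.00333, 0.00333, 0.00667 and 0.00902), and 0.792, 0.754, 0.702 and 0.598 without the 2 farthest. For Fap it was 0.686 (permutation, adjusted p = 0.0558). It was 0.392 for Fn1, 0.310 for Thy1, 0.302 for Postn and 0.135 for Sparc, with permutation p-values from 0.162 to 0.647.

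Other genes of the 10 followed the basal mean. Among glands Sparc tracked it with r = 0.978 and rho = 0.987 (permutation p = 1e-05 each, the smallest the draws can give; adjusted p = 0.00222 and 0.00667), with r = 0.960 without the 2 farthest libraries. Postn had r = 0.953 and rho = 0.969 at the same permutation p, and r = 0.946 without the 2 farthest. Thy1 had r = 0.844 (permutation p = 0.0003, adjusted p = 0.0114) and rho = 0.727 (permutation p = 0.00456, adjusted p = 0.0909). Dcn had r = 0.0711 (permutation p = 0.81), and Fn1, which followed neither list, had r = -0.176 (permutation p = 0.549). Within genotype, r of Sparc with the basal mean reached 0.967 over the 8 WT glands and 0.994 over the 6 KO glands (exact permutation p = 0.000149 and 0.00139), and that of Dcn with the reference mean was 0.904 and 0.885 (exact permutation p = 0.00243 and 0.0236). Without the 2 farthest libraries, r of Dcn was 0.534 in WT and 0.672 in KO glands, and rho in WT glands was 0.619 (exact permutation p = 0.115), so that this relation rests in part on those libraries.

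**Figure D3:**
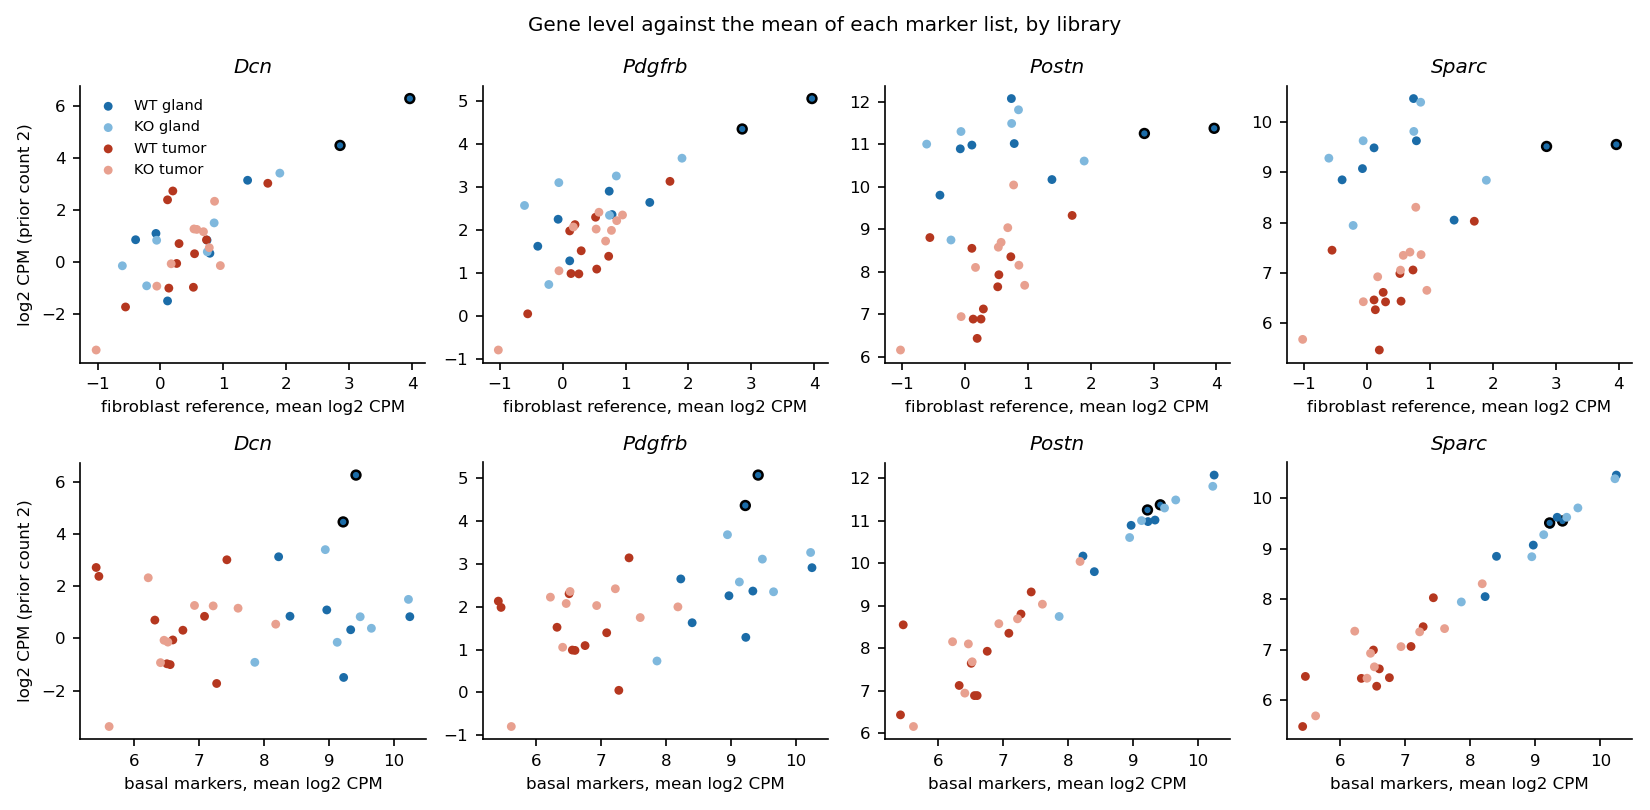
Log2 CPM of Dcn, Pdgfrb, Postn and Sparc in each library against the mean log2 CPM of the 15 fibroblast reference genes (top) and of the 10 basal markers (bottom), colored by genotype and tissue, with black rings around the second WT glands of weeks 6 and 8. Among glands Dcn lines up with the reference mean (r = 0.907) and Sparc with the basal mean (r = 0.978).

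In the 19 tumors the genes were less clearly divided. With the reference mean, r was 0.852 for Pdgfrb, 0.814 for Lum, 0.722 for Pdgfra and 0.708 for Dcn (permutation, adjusted p = 0.00381, 0.00296, 0.0191 and 0.0208). Sparc, Postn, Fap and Dpt had 0.591, 0.551, 0.542 and 0.513 (permutation, adjusted p from 0.0755 to 0.158), and 0.311, 0.281, 0.453 and 0.544 without the 2 farthest libraries, so that no order among these genes is read. That of Dcn dropped to 0.412 without the 2 farthest libraries and split by genotype into 0.560 for WT and 0.874 for KO, with -0.268 and 0.258 once the 2 farthest of each were left out, so that the relation of Dcn in tumors rests on those libraries. The same omission took Pdgfrb from 0.774 to -0.0405 in WT tumors and from 0.928 to 0.21 in KO tumors, and Pdgfra from 0.846 to 0.0486 in WT tumors, so that these relations rest on few libraries too. With the basal mean, r in tumors was 0.855 for Sparc, 0.789 for Thy1 and 0.765 for Postn (permutation, adjusted p = 0.00333, 0.00667 and 0.0081), and 0.0549 for Dcn. Without the 2 farthest these were 0.750, 0.642 and 0.625. Within genotype, r of Sparc with the basal mean reached 0.826 over 10 WT tumors (permutation p = 0.00335) and 0.873 over 9 KO tumors (exact permutation p = 0.00293). That of Postn was 0.552 over the WT tumors (permutation p = 0.102), or 0.927 without the 2 farthest, and 0.925 over the KO tumors (exact permutation p = 0.000637). For Thy1, r without the 2 farthest libraries was 0.437 in WT tumors, 0.372 in KO tumors and -0.163 in KO glands, so that its relation within these sets rests on those libraries. Fn1 in tumors had r = -0.518 with the reference mean (permutation, adjusted p = 0.129) and -0.163 with the basal mean.

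**Figure D4:**
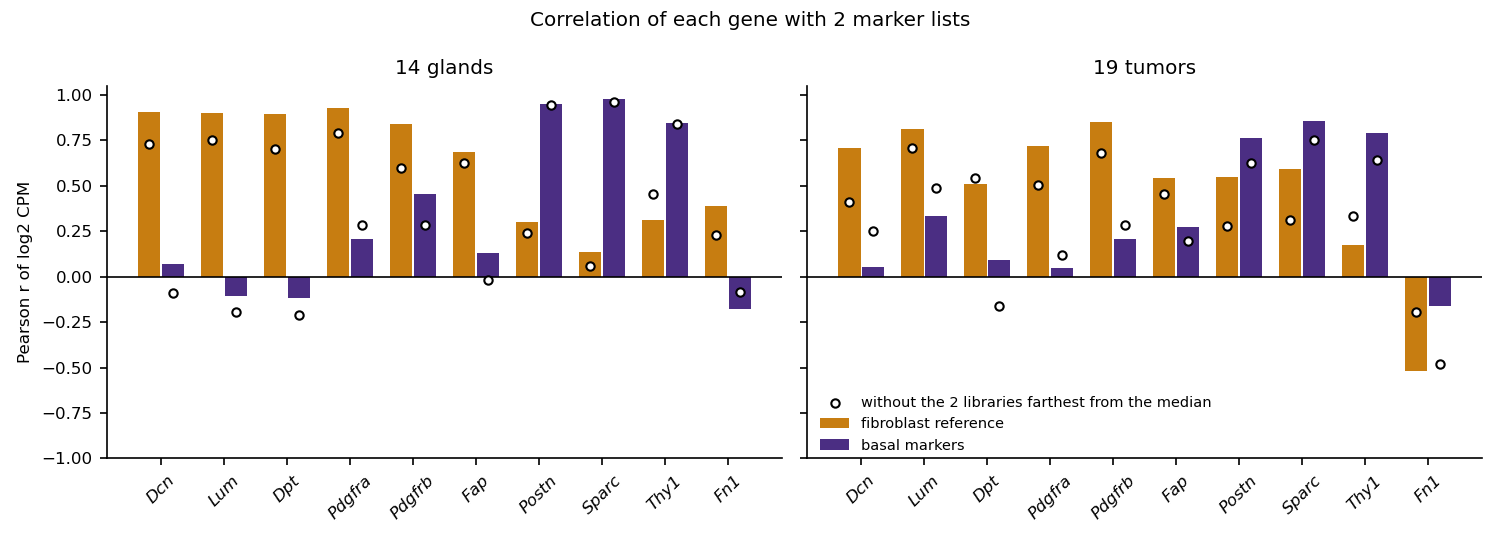
Pearson's r of the log2 CPM of each of the 10 genes with the fibroblast reference mean and with the basal mean (bars), over 14 glands and over 19 tumors, and r without the 2 libraries farthest from the median (open circles). In glands Dcn, Lum, Dpt, Pdgfra and Pdgfrb have r of 0.839 or more with the reference mean, and Postn, Sparc and Thy1 have r of 0.844 or more with the basal mean.

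The ratio of each gene to Dcn was also taken within each library. In glands the SD of the log2 ratio to Dcn was 0.88 for Dpt (8 libraries with reads), 1.15 for Lum (9 libraries), 1.27 for Pdgfrb and 1.43 for Pdgfra. It was 1.83 for Fap, 2.16 for Postn, 2.18 for Fn1, 2.29 for Sparc and 2.34 for Thy1, each over 14 glands like those of the PDGF receptors, whereas Dpt and Lum were taken only where they had reads. In tumors the order was another, with 1.15 for Pdgfrb, 1.18 for Lum, 1.42 for Fap, 1.52 for Pdgfra, 1.61 for Postn, 1.68 for Sparc, 1.98 for Dpt, 2.27 for Fn1 and 2.33 for Thy1. The ratio of Sparc to Dcn ran from 9.64 to 2260 between glands, and that of Pdgfrb to Dcn from 0.43 to 7.57.

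The genes with the most similar profiles also differed. After each condition's mean was subtracted, over 32 libraries and 13324 genes with a mean of at least 1 CPM, the 5 genes most like Dcn were Crip1 (r = 0.866), Pdgfrb (0.861), Stat5a (0.859), Adck5 (0.858) and the matrix metalloproteinase gene Mmp3 (0.856). Those most like Sparc were Irx4 (0.967), Gpx7 (0.964), Cacna1g (0.959), Boc (0.946) and Gng2 (0.937), and Sparc had r = 0.929 with Postn and 0.830 with Thy1. Those most like Fn1 were Creb5 (0.861), Klf12 (0.824), Ssh1 (0.808), Syne1 (0.802) and Arhgef7 (0.797). Between Sparc and Dcn r was 0.111, and between Fn1 and Dcn -0.534.

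Genes that act with the 10 were counted in the same tests, in which 9.53% of all genes were called lower and 6.21% higher in WT, and 5.44% and 5.16% in KO. Of 10 further small leucine-rich proteoglycans, the family of Dcn and Lum, 6 were lower in WT tumors and 3 in KO tumors, with medians of -1.45 and -0.97. Their summed level was 55.1 and 110 CPM in the second WT glands of weeks 6 and 8, against 2.51 to 30.1 CPM in the other WT glands. Without those glands the median in WT was -0.84, and at week 10, where neither gland is compared, it was 0.16. Prelp (-2.90, -1.86), Fmod (-2.53, -1.91) and Podn (-1.99, -0.98) were lower in both genotypes, and Epyc was at the floor in every library. Of the 4 PDGF ligands, 1 was lower in WT tumors and 0 in KO tumors. Of 5 integrin subunits of fibronectin receptors, 2 were lower in WT and 1 in KO tumors, with Itga5 at -2.96 and -2.14. Of 11 matricellular and microfibril genes, 2 rose and 2 fell in WT tumors, and 4 rose and 3 fell in KO tumors. Sparcl1, the closest relative of Sparc, rose by 4.13 and 4.68 and Smoc2 by 1.72 and 2.20, whereas Fbn1, the microfibril fibrillin, had -3.35 and -1.79, and Vcan -0.68 and -0.68.

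Markers of other cells were counted beside them, where 15.7% of all genes were called in WT and 10.6% in KO. Of 9 mural (pericyte) markers tested of 10, 6 were lower and 1 higher in WT tumors and 3 lower and 1 higher in KO tumors, with Cspg4 at -3.89 and -2.67, Des at -3.36 and -2.10 and Mcam at -1.74 and -1.46, while Kcnj8 rose by 2.15 and 3.30. Higd1b was at the floor in all groups. Of 10 endothelial markers, 6 were lower in WT and 1 in KO tumors, with summed levels of 2.47 to 9.96 CPM in WT glands, 2.36 to 21.3 in KO glands, 1.37 to 3.71 in WT tumors and 1.68 to 7.38 in KO tumors. Of 10 macrophage markers, 1 was higher and 4 lower in WT tumors and 2 were higher in KO tumors, with Cd14 at 1.83 and 1.45. Their median log2 difference was -0.515 in WT, where 7 of the 10 were negative, and 0.0343 in KO. Their sum was 63.5 to 172 CPM in glands and 151 to 418 in tumors, so in WT the sum and most of the markers went different ways. Of 10 luminal markers, 2 were higher and 1 lower in WT and 4 higher and 1 lower in KO tumors, with Elf5 at 3.01 and 2.21 and Krt19 at -2.18 and -1.41. Of 10 adipocyte markers, 1 was higher and 2 lower in WT and 1 higher in KO tumors, with Cfd at the floor in all groups. Of 10 lymphocyte markers 1 was lower in each genotype. The counts for lymphocyte markers, and in KO those for endothelial and adipocyte markers, were near the share over all genes. The part of these cells in the differences of the 10 genes was not tested.

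Each age was also tested on its own, with 2 glands against 3 tumors. At week 6 in WT, Pdgfrb, Postn, Sparc and Thy1 were lower in tumors (4 of 10, where 3.53% of all genes were called lower), and at week 8 Dcn, Pdgfrb, Postn, Fn1, Sparc and Thy1 (6 of 10, against 5.84%). At week 10 they were Postn, Sparc and Thy1 (3 of 10, against 3.67%). The Dcn difference was -3.71 at week 6 (edgeR adjusted p = 0.161), -5.01 at week 8 (edgeR adjusted p = 0.0329) and 0.04 at week 10. Without the second WT glands of weeks 6 and 8, which left a single gland at each of these ages, 1 gene was called at week 6 and 3 at week 8, while the share of all genes called lower went to 1.03% and 3.78%. At week 10 the same setting gave 1 gene higher (915 of all 35922 genes) and 1 lower (3.77% of all genes). In KO, 0 of 10 were called at week 8 (1.38% of all genes lower). By edgeR 2 had an unadjusted p below 0.05 (3885 of 36527 genes), and DESeq2 called 1 (1695 of 36527 genes). At weeks 10 and 12 in KO, 3 were lower, Postn, Sparc and Thy1, against 3.09% and 2.92%. The difference of Thy1 was -2.57, -2.98 and -3.23 at weeks 6, 8 and 10 in WT, and -1.31, -2.21 and -3.53 at weeks 8, 10 and 12 in KO. Most of these counts moved by more than 1.5 times when 1 library was left out (in WT between 0 and 4 genes at week 6, between 3 and 7 at week 8 and between 0 and 3 at week 10; in KO between 0 and 2, 0 and 4, and 0 and 4).

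WT and KO were compared directly to ask whether loss of Pthrp changed these genes. Between tumors at weeks 8 and 10, 0 of the 10 genes were called by edgeR (0.512% of all genes). By edgeR 1 had an unadjusted p below 0.05, near the share over all genes (3996 of 36527), and DESeq2 called 1 (664 of 36527 genes). In each case the gene was Thy1, with a WT minus KO log2 difference of -1.24 (SE 0.45, edgeR adjusted p = 0.292), or -1.25 by DESeq2 (DESeq2 adjusted p = 0.0725). With 1 library left out, the edgeR difference ran from -1.5 to -0.681. Between glands at weeks 8, 10 and 12, 0 were called by edgeR (0.906% of all genes) and 0 by DESeq2 (741 of 36527 genes). Dpt alone had an unadjusted p below 0.05 by edgeR (4514 of 36527 genes), with KO glands near the floor. The difference of the tumor effect between genotypes over weeks 8 and 10 gave 0 calls by edgeR (0.00548% of all genes) and by DESeq2 (74 of 36527 genes). Again Dpt alone was below an unadjusted p of 0.05 by edgeR (2038 of 36527 genes). These comparisons did not show that the genes were alike in WT and KO.

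Tumor stages were compared within genotype. From week 6 to week 10 in WT tumors, 0 of the 10 genes were called by edgeR (0.011% of all genes) or DESeq2 (253 of 36527 genes). Pdgfra, Pdgfrb and Fap had an unadjusted p below 0.05 by edgeR, as had 3122 of all 36527 genes. Pdgfra was 6.99, 7.80 and 4.58 CPM at week 6 and 20.7, 13.0 and 9.56 at week 10, and Pdgfrb 2.59, 1.95 and 0.998 and then 8.76, 4.89 and 4.33. The WT tumor of week 12 had 7.64 CPM of Pdgfra, within the week 6 range, and 3.91 CPM of Pdgfrb, below every week 10 tumor. From week 8 to week 12 in KO tumors, 0 of the 10 genes were called by edgeR (0% of all genes) or DESeq2 (125 of 36527 genes). Of the 10 genes 0 had an unadjusted p below 0.05 by edgeR, against 2878 of 36527 genes.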

How the data were processed

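Total RNA of GFP+ cells sorted from 33 mice was depleted of ribosomal RNA and sequenced with a stranded kit and random primers. Per the study's methods and the submitters' processing notes, the authors aligned reads with HISAT to the Gencode M16 transcripts and to GRCm38 merged with the reporter sequences. Duplicates were removed (Picard 1.128), and HTSeq gave the counts for each gene. The strand setting of that counting is not given in the sources used here. The deposited raw counts were used as they stand, after 111 rows that name no gene (0.0778% of reads) were set aside. The deposited normalized table, which the authors made by dividing each library's counts by a size factor (a signal value per gene), served only as an alternative for ratios between genes and for correlations with the reference list.

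Groups were taken from the labels. Genes with at least 10 reads summed over libraries (36527) were fitted with edgeR 4.0.16 in R 4.3.3 (TMM, quasi-likelihood test, 1 coefficient per genotype, tissue and week, Benjamini-Hochberg adjustment), and differences averaged over ages were contrasts of those coefficients. Log2 CPM carried a prior count of 2. On simulated counts for the averaged WT comparison, 66 of 100 genes changed 2-fold and 90 of 100 changed 4-fold were called, with 10 unchanged genes called among 36527. Of 25 pairs of libraries of a group, none was a duplicate (chi-square per degree of freedom of at least 37.4). Correlations used permutations (100000 draws, all orders below 10 libraries). Alternatives were DESeq2 1.42.0, relative log expression (RLE) normalization, no filter, ribosomal RNA genes left out, only the groups compared, each library left out, the replicate number as a block, the ribosomal RNA share, the reference mean or the basal mean as covariates and, added after the values were seen, the omission of the 2 or 4 glands highest in Dcn. Correlations with the reference list were also taken with a smaller prior count, with RLE normalization, on the deposited normalized table and with Pdgfra in place of the list. Intervals of counting error are not given, since differences between mice exceed them.

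The text names all 10 genes, up to 4 genes of each other list (those changed most among genes called the same way in both averaged comparisons) and the 5 genes most like Dcn, Sparc and Fn1. The genes and lists were chosen with earlier results of these data known. Proteins are not shown here.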

Additional observations from a re-analysis of the deposited data

Results flagged for a closer look

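Each of the 10 genes was screened within the 4 sets of libraries (WT glands, KO glands, WT tumors and KO tumors, ages pooled) for a library that lay far from the rest by Dixon's criterion. Chance flags about 1 in 20 groups of normally distributed values from 1 population, a rate that was not checked for CPM with ages pooled. Of 40 groups tested, 18 held such a library.

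The second WT gland of week 8 stood apart for Dcn (77.8 CPM, others 0.317 to 22.3), Dpt (1.58, others 0 to 0.729) and Pdgfra (28.7, others 3.07 to 13.9). The first WT gland of that age stood apart for Sparc (1410 CPM, others 265 to 789), with a basal marker mean of 10.2 on the log2 scale, the highest in WT glands. The KO gland of week 10 replicate 1 stood apart for Dcn (10.6 CPM, others 0.492 to 2.80), Lum (0.647, others 0 to 0.0543) and Dpt (0.307, others 0 to 0.0271), and it also had the most summed endothelial marker RNA (21.3 CPM). The KO gland of week 12 replicate 1 stood apart for Thy1 (30.5 CPM, others 3.20 to 11.9).

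Among tumors, the WT tumor of week 10 replicate 1 stood apart for Pdgfra (20.7 CPM, others 4.58 to 13.0) and Pdgfrb (8.76, others 0.998 to 4.89). The KO tumor of week 12 replicate 2 stood apart for Dcn (5.00 CPM, others 0.0583 to 2.37), Lum (1.01, others 0 to 0.453) and Pdgfra (16.1, others 5.24 to 9.90), and that of week 10 replicate 2 for Dpt (0.794, others 0 to 0.345). The KO tumor of week 8 replicate 1 stood apart for Postn (1050 CPM, others 71.4 to 524), Sparc (316, others 51.4 to 171) and Thy1 (5.09, others 0.892 to 2.94), and its basal marker mean of 8.18 was the highest of all tumors. The KO tumor of week 12 replicate 1 stood apart for Fn1 (4130 CPM, others 879 to 1970) and had the lowest Dcn of all libraries. The source of these differences was not tested.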

How the results depend on the processing

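In the averaged comparisons Postn, Sparc and Thy1 were called lower in tumors of both genotypes under all alternatives but the basal mean as a covariate. With that covariate 1 gene was called in WT (2793 of 36527 genes) and 0 in KO (3040 of 36527 genes), and 0 at each single age with calls. At those ages 712, 1759 and 2294 of all genes were called in WT at weeks 6, 8 and 10, and 2364 and 2687 in KO at weeks 10 and 12. The log2 differences turned to 0.0645 (Postn), 0.045 (Sparc) and 0.151 (Fap) in WT and to 0.58 (Postn), 0.27 (Sparc), 0.36 (Thy1) and 0.0245 (Pdgfrb) in KO. With the fibroblast reference mean as a covariate, 2 genes were called in WT at week 6, 1 in KO at week 8 and 5 in KO at week 10. Of all 36527 genes, 1961, 1013 and 3055 were then called, against 2139, 909 and 2067 in the main fit. WT differences turned to 0.73 (Dcn), 3.49 (Lum, for which no fold is read), 1.43 (Dpt) and 0.26 (Fap). Without the second WT glands of weeks 6 and 8 these were 0.32, 4.58, 1.37 and 0.29, and without the 4 glands highest in Dcn 0.99, 5.44, 1.98 and 0.36, with Dcn at 0.23 in KO (in both settings Lum and Dpt are fitted against glands at the floor and give no fold); both settings gave 1 call in WT at week 6 and 3 at week 8. Without a filter, 1 gene (Thy1) was called between WT and KO tumors, 5 in WT at week 10 and 2 in KO at week 8. Of all 49472 genes then tested, 573, 2678 and 1613 were called. DESeq2 called 6 genes in the averaged KO comparison and 1 (Thy1) between WT and KO tumors and 1 in KO at week 8. Of all 36527 genes it called 4094, 664 and 1695 there. The ribosomal RNA share as a covariate gave 1 in WT at week 10 (2156 of 36527 genes) and 2 in KO at week 8 (1085 of 36527 genes). Fits of only the groups compared gave 1 in WT at week 10 (995 of 24137 genes) and 1 in KO at week 8 (1416 of 23615 genes). At week 12 in KO such a fit gave 0, as it did for all 22035 genes tested. With Pdgfra in place of the reference list, r in tumors was -0.152 for Thy1, 0.102 for Postn, 0.258 for Sparc and 0.276 for Dpt. The cause of these changes was not tested.

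With 1 library left out, 5 to 8 genes were called in WT and 3 to 4 in KO in the averaged comparisons, 0 to 4, 3 to 7 and 0 to 3 in WT at weeks 6, 8 and 10, 0 to 2, 0 to 4 and 0 to 4 in KO at weeks 8, 10 and 12, and 0 to 0 in all others. Shares over all genes with 1 library left out are not given here, so these counts are only a description. At week 6 in WT the count fell to 0 or 1 without the tumors of replicates 1 (1) and 2 (0) or gland replicate 2 (1), and at week 8 to 3 without gland replicate 2. At week 10 in WT it fell to 0 without gland replicate 1 of that age and to 1 without any of 11 others: tumor replicate 3 of that age, both WT glands of weeks 6 and 12, WT tumors of week 6 replicate 1 and week 8 replicates 1, 2 and 3, KO gland of week 8 replicate 1 and KO tumor of week 10 replicate 2. In KO it rose at week 8 to 1 or 2 without KO tumor replicate 1 of week 8 (2), either KO gland of week 12 or WT tumor of week 10 replicate 3. It fell at week 10 without gland replicate 2 (0) or tumor replicates 2 (1) and 3 (0), and at week 12 without gland replicate 1 (0). Differences that changed sign ranged from -0.23 to 0.74 for Pdgfra (negative without the first glands of weeks 6, 8 and 10 or the tumors of week 6 replicate 2 and week 10 replicate 1), from -2.0 to 1.74 for Lum and from -2.77 to 0.35 for Dpt in WT (their positive values are fitted against an age with glands at the floor and give no fold), and from -0.86 to 0.22 for Dcn in KO.

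The replicate numbers in the labels only name mice, and same-numbered libraries did not deviate together (r from -0.309 to 0.0894). With the replicate number as a block, 6 genes were called in WT and 3 in KO (Dpt and Fn1 lost, at -1.54 and -0.73), 4, 6 and 3 in WT at weeks 6, 8 and 10, 0, 3 and 2 in KO at weeks 8, 10 and 12, and 0 in the comparisons of genotypes and stages. Of all 36527 genes, 5051 and 3566 were then called in the averaged comparisons. The counts over all genes were 1975, 2980 and 2035 in WT at these weeks and 850, 1849 and 1946 in KO, and at most 317 between genotypes or stages. Depth limited Lum, Dpt and Fap, which were at or below 3 reads in 9 of 14 glands and 3 of 19 tumors, in 8 and 11, and in 3 and 0.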
